A study of Mus musculus with 36 samples.

Results

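Genes of 10 potassium channel subunits that repolarize the heart muscle cell were followed in RNA of the mouse heart apex: Kcnip2, Kcnd2, Kcnd3, Kcnh2, Kcnq1, Kcna5, Kcnj2, Kcnj3, Kcnj5 and Kcnj11. They were chosen by symbol for their known part in the transient outward, delayed rectifier and inward rectifier currents, and all 10 were found among the 23352 gene entries of the data. The series compared hearts labelled cK15, whose genotype is given as a knockout of KLF15 (Klf15, a DNA-binding factor of the Kruppel-like family), with hearts of control mice, which carry alpha-MHC cre, a recombinase transgene under a promoter of heart muscle cells. The sources used here give neither the allele behind cK15 nor whether these mice also carry the cre transgene. All mice were labelled as C57BL/6 males aged 11 to 12 weeks, kept in 12 h of light and 12 h of dark, with no other treatment named. Each genotype was sampled at 12 am (read as midnight), 4 am, 8 am, 12 pm (read as noon), 4 pm and 8 pm with 3 libraries a time, which gives 18 libraries a genotype and 36 in all.

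Each heartbeat ends when potassium leaves the muscle cell through channels that open in turn. The fast transient outward current brings the first repolarization and is large in the mouse ventricle, delayed rectifiers carry later phases, and inward rectifiers hold the resting potential or link it to acetylcholine or to the energy state of the cell. Most of these channels are a pore protein with partner subunits, so that the level of a partner can matter as much as that of the pore. Klf15 is known as a regulator of Kcnip2 in the mouse heart, and loss of either gene is known to alter repolarization.

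The promoter sequences of the 3 genes of the transient outward current are shown because these were the members that differed between genotypes below. Each run holds the 250 bases before the RefSeq start (GRCm38.p6), 5′ to 3′ on the strand of the gene, with every CACCC or its reverse complement GGGTG, the core that Kruppel-like factors bind, in capitals. They lie at chr19:45816064-45816313 on the minus strand (Kcnip2), at chr6:21215096-21215345 on the plus strand (Kcnd2) and at chr3:105451640-105451889 on the plus strand (Kcnd3).
Kcnip2: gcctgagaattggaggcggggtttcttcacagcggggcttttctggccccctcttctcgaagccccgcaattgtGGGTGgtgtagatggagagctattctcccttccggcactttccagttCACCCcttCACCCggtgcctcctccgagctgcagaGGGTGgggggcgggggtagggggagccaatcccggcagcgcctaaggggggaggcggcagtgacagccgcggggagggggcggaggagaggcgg
Kcnd2: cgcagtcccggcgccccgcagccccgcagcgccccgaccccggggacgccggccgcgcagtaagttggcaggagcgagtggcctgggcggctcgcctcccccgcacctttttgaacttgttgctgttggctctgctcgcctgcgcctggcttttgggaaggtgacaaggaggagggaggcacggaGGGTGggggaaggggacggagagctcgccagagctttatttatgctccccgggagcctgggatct
Kcnd3: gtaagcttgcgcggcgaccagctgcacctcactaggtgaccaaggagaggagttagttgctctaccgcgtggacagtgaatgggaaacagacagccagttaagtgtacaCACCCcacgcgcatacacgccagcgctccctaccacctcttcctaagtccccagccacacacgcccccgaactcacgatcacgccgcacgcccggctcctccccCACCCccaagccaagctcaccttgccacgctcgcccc
The Kcnip2 window held 4 such matches, 2 on each strand, as many as or more than which occur in 2.14% of 32851 RefSeq promoters of the same length. Kcnd3 held 2 (21.1% of promoters hold at least as many) and Kcnd2 held 1 (52.0%). These shares are over all promoters and are not matched for base content. G and C made up 66.8% of the Kcnip2, 68.8% of the Kcnd2 and 62.8% of the Kcnd3 window. Among the other members in the promoter table, Kcnh2 held 3 (6.92%), Kcna5 held 2, Kcnj2 and Kcnj5 held 1 each and Kcnj3 held 0. The Kcnh2 window, at chr5:24329592-24329841 on the minus strand, lies inside the gene, which spans 24319589 to 24351604. It precedes an internal RefSeq start and not the 5′ end of the gene. GC boxes (GGGCGG or CCGCCC, in 32.7% of promoters) numbered 2 in the Kcnip2, 1 in the Kcnd2 and 0 in the Kcnd3 window, and no CACCC match overlapped one. An E-box (CACGTG, in 6.02% of promoters) was found in the Kcnj2 window alone among the 8 members listed, and a D-box (TTATGTAA on either strand, in 0.819% of promoters) in none of them. Kcnq1 and Kcnj11 have no entry in that table. These matches describe the letters and are no evidence of binding.

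Values are FPKM (sequenced fragments per length of the gene and per size of the library), so that levels can be compared between genes. In 12 libraries, 1 of each group, the share of all FPKM held by the top 10 genes was 16.1 to 17.7%, and in the other 24 it was 21.7 to 25.0%; results are given for both sets where they differ. These 12 are replicate 1 of cK15 and replicate 2 of control at 5 of the times and replicate 4 of each genotype at 8 pm. Klf15 was at 0.406 to 2.91 FPKM in the 18 control libraries (1.45 ± 0.727, mean ± SD, n = 18), and in cK15 it was listed at 0 in 13 of 18 and reached at most 0.326, as the labels state. Of the markers of the tissue, the 9 of heart muscle cells summed to 60985 to 106080 FPKM in control and 60373 to 117550 in cK15. Of 7 atrial markers, Sln was listed at 0 in 17 of 18 control and 18 of 18 cK15 libraries and Bmp10 in 17 and 17, while Myl7 reached 43.0 FPKM in control, and the 7 summed to 61.1 to 238 FPKM in control and 104 to 415 in cK15. The 6 markers of the conduction system summed to 0.717 to 2.61 FPKM (Isl1 listed at 0 throughout) and the 6 of nerve to at most 3.77 FPKM. An exact 0 need not mean absence in these values, since all 36 libraries list 0 for Ttn, whose product titin is a main protein of heart muscle.

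The channel genes covered a wide range of levels, and their order was nearly the same in both genotypes. In control hearts Kcnip2 was highest (median 85.1 FPKM), followed by Kcnq1 (35.6), Kcnh2 (9.79), Kcnj3 (7.95) and Kcnj11 (3.52). Kcnd3 (2.12), Kcnd2 (2.02), Kcnj5 (1.92) and Kcnj2 (1.45) came next, and Kcna5 was listed at 0 in most libraries. Kcnip2 exceeded Kcnq1, Kcnq1 exceeded Kcnh2 and Kcnj3 exceeded Kcnj11 in 18 of 18 libraries of each genotype. Kcnd3 was above Kcnd2 in only 8 of 18 control libraries and Kcnd2 above Kcnd3 in 9 of 18 cK15 libraries, so these 2 did not differ beyond their spread over the 36 libraries. The sets differed here: Kcnd2 was the higher of the pair in 6 of 6 control and 5 of 6 cK15 libraries that stand apart, and in 4 of 12 and 4 of 12 of the others. Kcnh2 exceeded Kcnj3 in 13 of 18 control and 17 of 18 cK15 libraries, and Kcnd2 exceeded Kcnj5 in 13 of 18 control libraries.

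**Figure D1:**
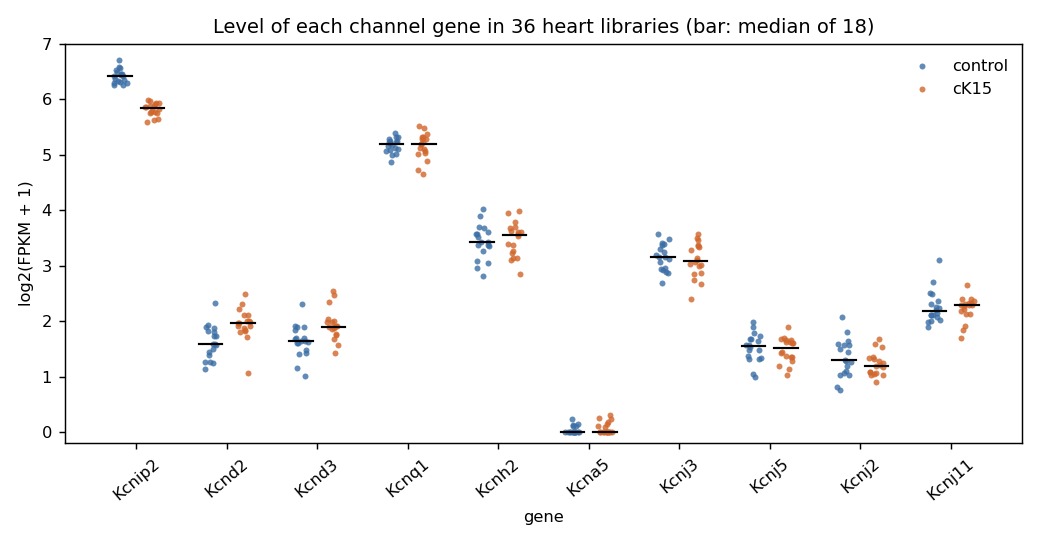
Level of the 10 channel genes as log2(FPKM + 1) in each of the 36 libraries, by genotype, with a bar at the median of 18. The cK15 points of Kcnip2 lie below every control point, whereas those of the other 9 genes overlap with control, and Kcna5 lies at or near 0.

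Hearts without Klf15 had less Kcnip2 and more Kcnd2 and Kcnd3, the 3 genes of the transient outward channel, while no difference passed the threshold for the other 6 members tested. The 2 rises did not pass with the random replicate block (adjusted p = 0.328 and 0.288), in which libraries of a genotype that share a number count as correlated; 1 member, Kcnip2, was then called. Without the block, averaged over the 6 times, 1 member was lower and 2 were higher at an adjusted p under 0.05 (limma on log2(FPKM + 1), Benjamini-Hochberg over all 10599 genes with a mean of at least 1 FPKM). The background was 11.2% of genes called, 4.06% higher and 7.18% lower in cK15. Kcna5 stayed below the filter and was not tested. The median log2 fold change of the 9 tested members was -0.033, beside -0.012 over all genes tested.

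**Figure D2:**
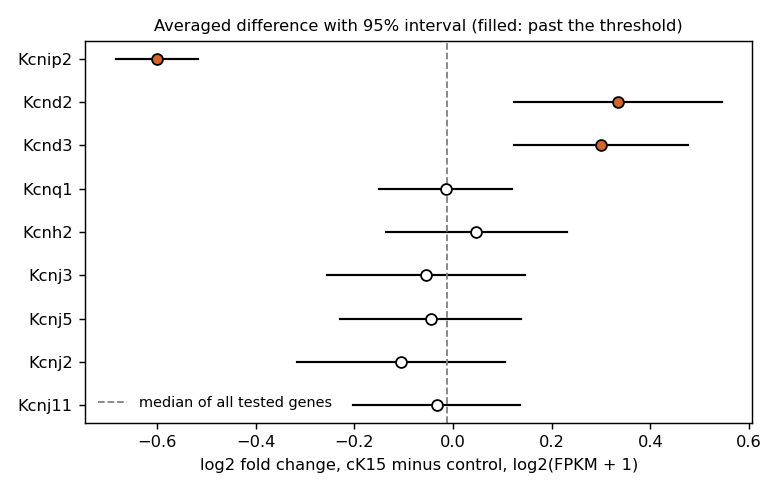
Log2 fold change of cK15 against control on the log2(FPKM + 1) scale, averaged over the 6 times, for the 9 members tested, with 95% intervals; filled points passed the threshold and the dashed line marks the median of all genes tested (-0.012). Kcnip2 lies at -0.60, Kcnd2 at 0.33 and Kcnd3 at 0.30, and the intervals of the other 6 genes include 0.

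Kcnip2 encodes KChIP2, the calcium-binding partner that brings the pore of the transient outward channel to the cell surface and slows its inactivation. Its gene lies on chromosome 19 at 45791839 to 45816061 on the minus strand (GRCm38). The 18 control libraries ran from 75.8 to 103.6 FPKM with a median of 85.1, and the 18 cK15 libraries from 47.2 to 62.2 with a median of 56.5. The genotypes did not overlap, as the lowest control library stood above the highest cK15 library. Of all genes tested, 0.604% had every cK15 library below every control library. The mean of Kcnip2 fell from 85.1 ± 7.60 to 55.7 ± 4.48 FPKM (SD, n = 18 each), with a log2 fold change of -0.60 (SE 0.041, 95% interval -0.68 to -0.52; limma adjusted p = 1.58e-12). In bulk RNA, fewer cells of a type and less RNA per cell cannot be told apart. Over all genes tested, 4.06% were called higher in cK15 and 7.18% lower. Of the 9 markers of heart muscle cells, none passed the threshold as lower and 3 (Actc1, Ryr2 and Ckm) were higher in cK15, by 0.15, 0.19 and 0.22 on the log2 scale. Their part in the fall of Kcnip2 was not tested.

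The difference in Kcnip2 was present at every time of day. At 12 am the control libraries held 78.2, 85.2 and 103.6 FPKM and the cK15 libraries 49.1, 53.4 and 53.6. At 4 am they held 82.0, 86.2 and 91.7 against 47.2, 48.6 and 61.7. These 2 times showed the widest gaps, with log2 fold changes of -0.75 (limma adjusted p = 8.36e-06) and -0.72 (2.04e-05). At 8 am control libraries held 76.0, 80.6 and 84.9 FPKM and cK15 libraries 54.7, 57.0 and 59.6. At 12 pm they held 75.8, 77.3 and 86.9 against 52.9, 56.1 and 60.5, and at 4 pm 77.9, 79.5 and 89.4 against 53.2, 56.9 and 62.2. At 8 am, 12 pm and 4 pm the log2 fold changes were -0.49 (adjusted p = 0.00605), -0.49 (0.00567) and -0.51 (0.00296). At 8 pm the control libraries held 87.2, 94.4 and 94.6 FPKM and the cK15 libraries 58.2, 58.3 and 60.1, a log2 fold change of -0.64 (adjusted p = 0.000165; SE 0.099 at each time).

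Kcnip2 was thus lower with no overlap at 6 of 6 times. Over all genes, 0.934% showed that pattern without overlap, and 0.453% were called lower at all 6 times. The share of genes called lower was 1.09% at 12 am, 0.962% at 4 am, 0.887% at 8 am, 0.698% at 12 pm, 1.1% at 4 pm and 0.887% at 8 pm. The limma test of whether its difference varied among the times gave an adjusted p of 1 (unadjusted 0.235). The 8 am and 12 pm calls were the least secure. Without replicate 4 of control at 8 am the fold change there was -0.45 (adjusted p = 0.0505). Without replicate 2 of control at 12 pm it was -0.43 (0.0634), and without replicate 3 of cK15 at 12 pm -0.45 (0.0635). Without the 12 libraries that stand apart, it was -0.48 at 12 pm (0.0514).

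**Figure D3:**
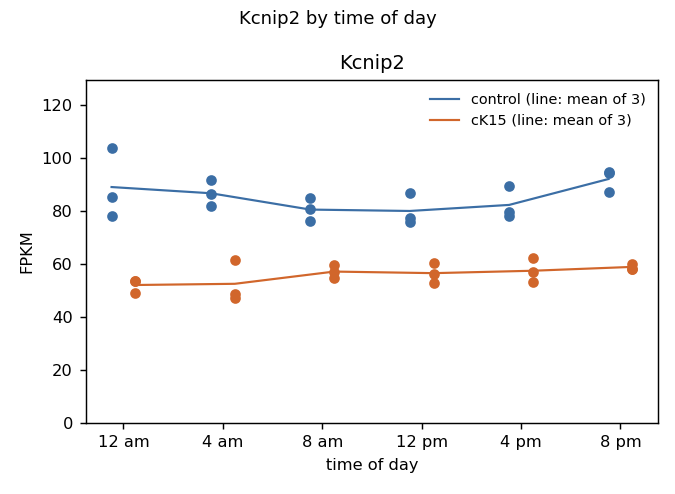
Kcnip2 in FPKM (y axis from 0) at the 6 times of day, each point a library and each line the mean of 3. Control libraries lie between 75.8 and 103.6 and cK15 libraries between 47.2 and 62.2, apart at every time.

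Over the 12 group means of log2(FPKM + 1), the genes whose pattern was most like that of Kcnip2 were Gcat (Pearson r = 0.983), Dbt (0.983), Adhfe1 (0.981), Ttc38 (0.979) and Gnmt (0.979). These are correlations over 12 means that share the genotype difference, and 161 genes exceeded 0.9. Gcat and Gnmt act on glycine and threonine, and Dbt is a subunit of the branched-chain ketoacid dehydrogenase. Gcat went from 11.7 ± 1.77 to 4.34 ± 0.796 FPKM and Dbt from 29.1 ± 4.59 to 13.7 ± 1.27 (SD, n = 18 each). Within the 6 control means alone, r with Kcnip2 was 0.84 for Gcat, 0.77 for Dbt, 0.78 for Adhfe1, 0.15 for Ttc38 and 0.95 for Gnmt. Within the 6 cK15 means it was 0.31, 0.52, 0.44, 0.91 and -0.18. Among the members, Kcnd2 (r = -0.75) and Kcnd3 (-0.60) had negative r with Kcnip2 over the 12 means, but r was -0.19 and -0.37 within the 6 control means and 0.79 and 0.50 within the 6 cK15 means. Over the 12 means, the other 6 lay between -0.052 and 0.44.

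Kcnd2 and Kcnd3 encode the pore proteins of the transient outward channel, Kv4.2 and Kv4.3, which KChIP2 binds. Kcnd2 lies on chromosome 6 at 21215503 to 21729805 and Kcnd3 on chromosome 3 at 105452330 to 105674002, both on the plus strand. Kcnd2 ran from 1.21 to 4.002 FPKM in control (median 2.02) and from 1.11 to 4.61 in cK15 (median 2.91). The ranges overlapped, and 17 of 18 cK15 libraries lay above the control median. The means of Kcnd2 were 2.14 ± 0.688 and 2.94 ± 0.728 FPKM (SD, 18 libraries each), a rise of 0.33 on the log2 scale (SE 0.10, 95% interval 0.12 to 0.54; limma adjusted p = 0.0318). Kcnd3 ran from 1.01 to 3.95 FPKM in control (median 2.12) and from 1.69 to 4.85 in cK15 (median 2.74), and 16 of 18 cK15 libraries lay above the control median. It rose from 2.18 ± 0.654 FPKM in control to 2.91 ± 0.824 in cK15 (log2 fold change 0.30, SE 0.086, 95% interval 0.12 to 0.48; limma adjusted p = 0.0208).

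These 2 calls were weaker than that of Kcnip2. With the random replicate block the adjusted p of Kcnip2 was 1.74e-08, and 3.26% of all genes were called. With the replicate number as a fixed term over all times, both rises passed (adjusted p = 0.0206 and 0.0314). Replicate 1 occurs only in cK15 and replicate 2 only in control, so these libraries add nothing to the averaged difference under that term. Leaving out 1 library ended the Kcnd2 call in 11 of 36 cases (replicate 1 of cK15 at 12 am, 12 pm or 4 pm, replicate 3 of cK15 at 12 am or 8 pm, replicate 3 of control at 12 am or 8 pm, and replicate 4 of control at 4 am, 8 am, 12 pm or 4 pm), at adjusted p of 0.0504 to 0.0596. No single library ended the Kcnd3 call.

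Neither pore gene passed the threshold at a single time, where 0.113% (12 am), 0.16% (4 am), 0.17% (8 am), 0.0472% (12 pm), 0.198% (4 pm) and 0.236% (8 pm) of genes were called higher, but both were higher on average in cK15 at 6 of 6 times. At 4 am the control libraries held 1.71, 2.02 and 2.32 FPKM of Kcnd2 and the cK15 libraries 2.51, 2.79 and 3.03. At 8 pm they held 1.42, 2.02 and 2.82 against 2.92, 2.97 and 3.65. At these 2 times all cK15 libraries lay above control (11.2% and 11% of genes were apart in either direction), and at the other 4 times the libraries overlapped. The log2 fold changes of Kcnd2 ran from 0.16 at 12 am, where 1 cK15 library was at 1.11 FPKM, to 0.46 at 8 pm (limma adjusted p of at least 0.7495 at every time).

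Kcnd3 held 1.01, 1.68 and 2.24 FPKM in control at 4 am and 2.62, 2.73 and 2.97 in cK15. At 8 pm the values were 1.80, 2.60 and 2.73 against 2.76, 3.04 and 4.55. Those were the 2 times without overlap for Kcnd3 too. At 8 am the control libraries held 2.03, 2.21 and 2.25 FPKM and lay within the cK15 range of 1.69 to 2.97. Its log2 fold changes ran from 0.039 at 8 am to 0.54 at 4 am (unadjusted p = 0.0159, limma adjusted p = 0.388).

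**Figure D4:**
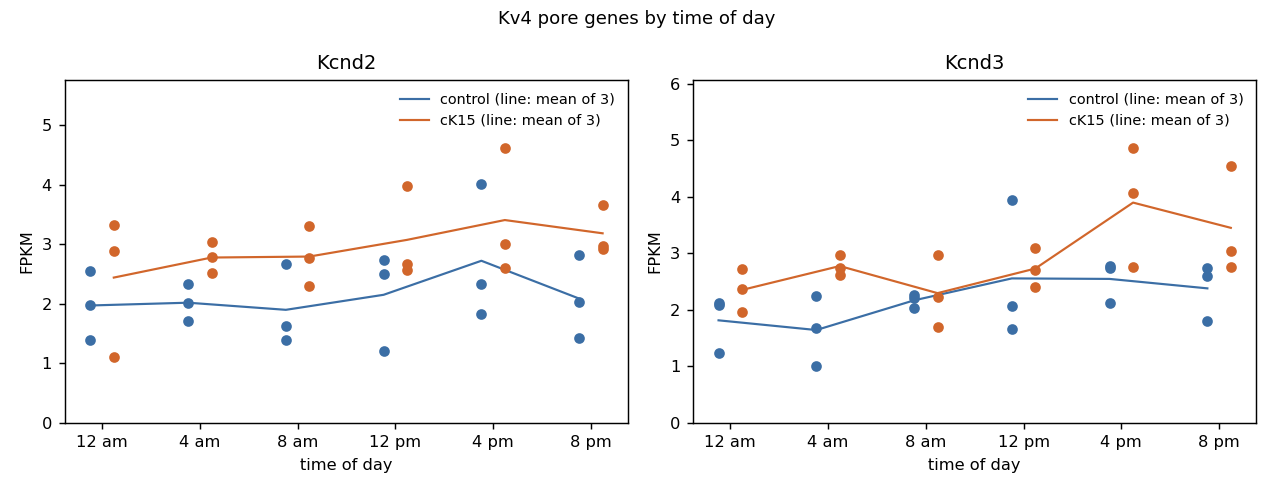
Kcnd2 (left) and Kcnd3 (right) in FPKM at the 6 times of day, each point a library and each line the mean of 3, with y axes from 0. The cK15 mean lies above the control mean at every time for both genes, and the libraries of the genotypes are apart at 4 am and 8 pm.

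Both rises were larger in the set of 24 libraries than in the 12 that stand apart. Kcnd2 was at a median of 1.77 FPKM in the 12 control and 2.78 in the 12 cK15 libraries of the set of 24, and at 2.70 and 3.31 in the 6 and 6 libraries that stand apart. The log2 fold change of Kcnd2 was 0.40 (limma adjusted p = 0.0172) in the first set and 0.20 (0.228) in the second. That of Kcnd3 was 0.34 (0.0299) and 0.21 (0.482), and that of Kcnip2 -0.62 (1.75e-08) and -0.56 (1.34e-05). The difference between the sets was not tested. Both pore genes are expressed in heart muscle cells, of whose 9 markers 3 were higher and 0 lower in cK15. Over all genes tested, 4.06% were called higher and 7.18% lower. Fibroblast markers were lower (6 of 6 tested, 1508 to 1891 FPKM summed in control and 1274 to 1580 in cK15, Gsn and Dcn the most abundant), as were 6 of 7 macrophage markers (161 to 248.8 and 142 to 226 FPKM summed). The part of either in the rise of the pore genes was not tested. For Kcnd3, exons overlap with the antisense gene Kcnd3os, which is not among the entries analysed here, and the sources used here do not say whether strand was used in counting.

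The ratio of Kcnip2 to the sum of Kcnd2 and Kcnd3, all in FPKM, ran from 11.5 to 29.8 in control libraries with a median of 19.7. In cK15 libraries it ran from 7.22 to 17.5 with a median of 9.43. In all, 16 of 18 cK15 libraries lay below every control library. In the set of 24 the medians were 20.9 and 9.26, and in the 12 that stand apart 17.4 and 9.82. The ratio restates the members' fold changes and was not tested. Between libraries of the same group, Kcnip2 had weak correlations with its pore genes (r of deviations from the group mean -0.11 with Kcnd2 and 0.056 with Kcnd3 over 36 libraries, and -0.084 and 0.37 over the 24).

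The delayed rectifier genes did not pass the threshold. Kcnq1 encodes the pore of the slow delayed rectifier and lies on chromosome 7 at 143106362 to 143427042. It ran from 28.3 to 41.0 FPKM in control (median 35.6) and from 24.3 to 44.9 in cK15 (median 35.8), and the ranges overlapped almost fully. Its log2 fold change was -0.015 (SE 0.066, 95% interval -0.15 to 0.12; limma adjusted p = 0.935). The antisense RNA Kcnq1ot1, which shares exon sequence with Kcnq1 on the opposite strand at 143203458 to 143296549, was at 8.76 ± 1.54 and 8.95 ± 1.96 FPKM (SD, 18 libraries each; log2 change 0.014, adjusted p = 0.948), and without strand the reads of the pair cannot be told apart. Kcne1, the partner that slows Kcnq1 channels, was below the filter at a mean of 0.537 FPKM in control and 0.470 in cK15.

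Kcnh2 encodes ERG, the pore of the rapid delayed rectifier, and lies on chromosome 5 at 24319589 to 24351604 on the minus strand. It ran from 6.08 to 15.3 FPKM in control (median 9.79) and from 6.26 to 14.9 in cK15 (median 10.7). Its averaged log2 fold change was 0.047 (SE 0.089, 95% interval -0.14 to 0.23; limma adjusted p = 0.834). The genotypes overlapped at all 6 times. Kcnq1 stood 3.46-fold above Kcnh2 in the median control library and 3.29-fold in the median cK15 library.

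Kcna5 encodes the pore of an ultrarapid delayed rectifier, Kv1.5, and lies on chromosome 6 at 126532551 to 126535412. It was listed at 0 in 13 of 18 control and 11 of 18 cK15 libraries, and the highest values were 0.173 and 0.233 FPKM. In the 24 libraries whose relative depth could be read, 6 were above 0. Scaled for depth, 3 of these lay at the smallest value and 3 at 2 times that value, within 5%. That the smallest value is 1 fragment could not be read from the values. Kcna5 was below the filter, so no test of a difference is given.

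The inward rectifier genes did not pass the threshold either. Kcnj2 encodes Kir2.1, the main pore of the current that sets the resting potential, and lies on chromosome 11 at 111066164 to 111076821. It ran from 0.683 to 3.19 FPKM in control (median 1.45) and from 0.861 to 2.22 in cK15 (median 1.29). Its log2 fold change was -0.11 (SE 0.10, 95% interval -0.32 to 0.11; limma adjusted p = 0.622). The 2 highest control libraries lay above every cK15 library and the 2 lowest control libraries below every one. In the set of 24 the fold change was -0.017 (adjusted p = 0.924) and in the 12 libraries that stand apart -0.28 (0.153).

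Kcnj3 and Kcnj5 encode the subunits GIRK1 and GIRK4 of the channel that acetylcholine opens through G proteins, a channel best known from atrium and sinus node. Kcnj3 lies on chromosome 2 at 55435970 to 55598145, where its exons overlap with those of Gm26794 on the opposite strand, and Kcnj5 on chromosome 9 at 32314707 to 32344350. Kcnj3 ran from 5.46 to 10.9 FPKM in control and from 4.25 to 10.9 in cK15, with medians of 7.95 and 7.50. Its log2 fold change was -0.056 (SE 0.098, 95% interval -0.26 to 0.15; limma adjusted p = 0.817). At 8 am all 3 cK15 libraries lay below control (10.9% of genes were apart there), with a log2 fold change of -0.27 (adjusted p = 0.987). Kcnj5 ran from 0.998 to 2.96 FPKM in control and from 1.03 to 2.73 in cK15, with medians of 1.92 and 1.88, and a log2 fold change of -0.045 (95% interval -0.23 to 0.14; adjusted p = 0.843).

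Kcnj3 exceeded Kcnj5 in 18 of 18 libraries of each genotype, with median ratios of 4.16 in control and 4.34 in cK15. Over all genes tested, 4.06% were called higher in cK15 and 7.18% lower. Of the 5 atrial markers tested, Myl7 (7.37 ± 9.18 FPKM in control and 3.37 ± 2.16 in cK15, SD, 18 libraries each) and Stard10 (16.6 ± 1.87 and 14.2 ± 3.05) were lower and Tbx5 was higher in cK15. Their part in the level of the GIRK genes was not tested.

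Kcnj11 encodes Kir6.2, the pore of the channel that ATP closes, and lies on chromosome 7 at 46093953 to 46100764. It ran from 2.71 to 7.57 FPKM in control (median 3.52) and from 2.24 to 5.26 in cK15 (median 3.89). Its log2 fold change was -0.033 (SE 0.083, 95% interval -0.20 to 0.14; limma adjusted p = 0.878). The sign of this value was not stable: it was 0.087 in the set of 24 (adjusted p = 0.555) and -0.27 in the 12 libraries that stand apart (0.347). Kcnj8, the related pore Kir6.1, was at 5.04 ± 0.923 and 4.77 ± 0.859 FPKM (SD, n = 18 each).

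The sulfonylurea receptors that pair with these pores differed from each other. Abcc9 (SUR2) was far more abundant, at 182.6 ± 19.9 FPKM in control and 185.0 ± 21.4 in cK15 (log2 fold change 0.017, limma adjusted p = 0.916). Abcc8 (SUR1) rose from 16.5 ± 2.04 FPKM in control to 21.7 ± 3.14 in cK15 (log2 fold change 0.37, SE 0.065; adjusted p = 0.000136, and at most 0.00815 under every alternative). The ratio of Abcc9 to Kcnj11 had a median of 49.4 in control and 48.2 in cK15.

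Of 20 partner subunits and anchors listed, 9 passed the filter, of which 2 rose (Abcc8 and Cav3) and none fell, beside 4.06% and 7.18% of all genes tested. Their median log2 fold change was 0.10, beside -0.012 over all genes tested. Cav3, the caveolin of muscle that anchors channels in the membrane, rose from 7.55 ± 1.83 FPKM in control to 9.74 ± 2.03 in cK15 (log2 fold change 0.34, SE 0.099; limma adjusted p = 0.0202, but 0.293 with the random replicate block and 0.0550 with the fixed one). None of the 7 others, among them Kcnab1, Kcnip4, Abcc9, Akap9 and Dlg1, passed the threshold. Kcnip4, a relative of KChIP2, was at 3.06 ± 0.886 FPKM in control and 3.37 ± 0.935 in cK15 (SD, n = 18 each), far below Kcnip2. Dpp6, another partner of the transient outward pore, was listed at 0 in 13 of 18 control and 12 of 18 cK15 libraries.

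Of 35 other pore subunits listed, 7 passed the filter, of which 1 rose and 3 fell, with a median of -0.065. Among all genes tested 4.06% rose and 7.18% fell. Hcn2, a pacemaker channel of the ventricle, rose from 3.41 ± 0.801 FPKM in control to 4.81 ± 1.19 in cK15 (log2 fold change 0.39, SE 0.094; limma adjusted p = 0.00475, and 0.207 with the random replicate block). Kcnn1, a calcium-activated channel, fell from 2.33 ± 0.447 FPKM in control to 1.73 ± 0.304 in cK15 (log2 fold change -0.29, adjusted p = 0.00305, and 0.148 with the random replicate block). Kcnt2, a sodium-activated channel, fell from 7.32 ± 1.05 FPKM in control to 6.46 ± 0.722 in cK15 (log2 fold change -0.15, adjusted p = 0.0259, and 0.358 with the random replicate block). Kcnt2 is among the calls that another scaling ends (0.0786 with quantile normalization). Kcnj8, Kcnk3 and Kcnn2 did not pass the threshold. The other pore of the fast transient outward family, Kcnd1, was listed at 0 in 14 of 18 control and 13 of 18 cK15 libraries. The slow transient outward pore Kcna4 was listed at 0 in 13 of 18 control and 8 of 18 cK15 libraries, with highest values of 0.198 and 0.141 FPKM.

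Among 17 transcription factors known to act on such channel genes, 13 passed the filter, of which 2 rose and 1 fell, with a median of 0.11. Klf15 itself is among the 17 but stayed below the filter (1.45 ± 0.727 FPKM in control and 0.0636 ± 0.114 in cK15), so its fall is not counted. The shares over all genes tested were 4.06% higher and 7.18% lower. Tbx5, a T-box factor, rose from 4.50 ± 0.704 FPKM in control to 5.70 ± 1.14 in cK15 (log2 fold change 0.28, SE 0.067; limma adjusted p = 0.00507). Nkx2-5, a homeobox factor of the heart, rose from 4.50 ± 1.18 FPKM in control to 5.91 ± 1.23 in cK15 (log2 fold change 0.34, adjusted p = 0.0150). Hey2, a transcriptional repressor expressed in ventricular muscle, fell from 1.49 ± 0.411 FPKM in control to 0.895 ± 0.410 in cK15 (log2 fold change -0.41, limma adjusted p = 0.00493). With the random replicate block the adjusted p of these 3 were 0.154, 0.325 and 0.172, and with the fixed one that of Nkx2-5 was 0.0645. Irx4, of the Iroquois family whose members are known to act on Kcnd2, was at 4.39 ± 1.00 and 4.36 ± 0.995 FPKM (SD, n = 18 each; adjusted p = 0.965), and Irx3 was at 1.17 ± 0.323 and 1.35 ± 0.406 (adjusted p = 0.371).

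The series was sampled around the clock, and a 24 h curve was fitted to each genotype's own 18 libraries. Only Kcnh2 passed the threshold in control (1 of 9 members tested, background 2.8% of genes), and no member did in cK15 (background 1.08%). Unadjusted p was under 0.05 for 1 member in control (Kcnh2) and for 2 in cK15 (Kcnd3 and Kcnh2), beside 14% and 8.95% of all genes. By comparison, the clock genes Arntl, Dbp and Per2 had adjusted p of at most 9.4e-07 in each genotype and amplitudes between 1.12 and 2.02 on the log2 scale, from mean to peak.

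Kcnh2 was lowest at 4 am and highest at 4 pm on average in both genotypes. In control, libraries of 4 am held 6.74, 7.28 and 9.31 FPKM and those of 8 am 6.08, 7.52 and 11.0. Those of 4 pm held 10.9, 11.8 and 14.0 and those of 8 pm 9.76, 10.4 and 15.3. All 4 pm values lay above those of 4 am, but these times were picked from the same data as highest and lowest. The share of all genes apart in this way was not computed. The amplitude was 0.32 (SE 0.073) with a peak at 17.4 h of clock time (limma adjusted p = 0.0488). In cK15 the amplitude was 0.24 (SE 0.085) with a peak at 17.5 h (limma adjusted p = 0.501, unadjusted 0.0380). The difference in rhythm between genotypes had an adjusted p of 1 (unadjusted 0.782). A rhythm called in control alone therefore does not show a difference between the genotypes.

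The Kcnh2 call lies close to the threshold. Leaving out any 1 of 14 of the 18 control libraries ended it, at adjusted p of 0.0566 to 0.113. The 4 libraries whose loss left it were replicate 2 at 12 am, 4 am and 8 am and replicate 3 at 8 pm. Kcnh2 also differed between the library sets: in 12 of 12 groups the library that stands apart was above both others, by 0.41 on the log2 scale on average, which 9.64% of genes do. With a term for the set, the adjusted p was 7.43e-05, and without those libraries it was 0.00849. As 6 separate time means with no curve, the adjusted p was 0.470.

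**Figure D5:**
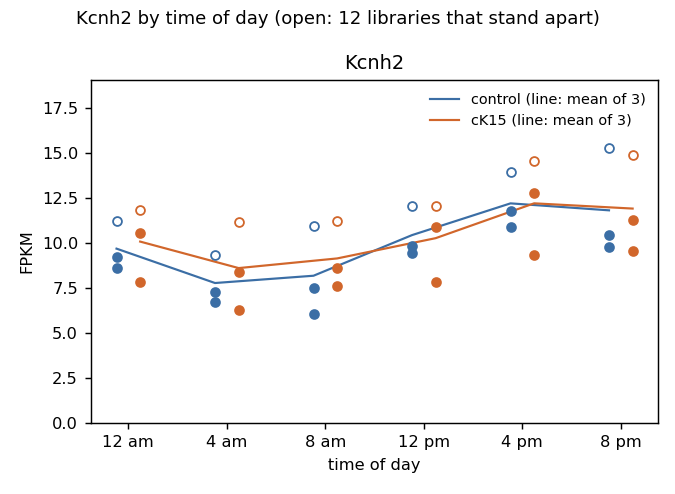
Kcnh2 in FPKM (y axis from 0) at the 6 times of day, each point a library and each line the mean of 3; open points are the 12 libraries in which the 10 most abundant genes take the smaller share. The open point is the highest of its group in 12 of 12 groups, and both means are lowest at 4 am and highest at 4 pm.

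Kcnip2, known from earlier work as a rhythmic gene, did not pass the threshold for a 24 h rhythm here. Its amplitude was 0.099 (SE 0.039, peak at 22.7 h, limma adjusted p = 0.395) in control and 0.075 (SE 0.041, peak at 14.9 h, adjusted p = 0.882) in cK15. Control means ran from 80.0 ± 6.02 at 12 pm to 92.1 ± 4.22 at 8 pm, and cK15 means from 52.0 ± 2.52 at 12 am to 58.9 ± 1.10 at 8 pm (SD, n = 3 each). The difference between the 2 curves had an unadjusted p of 0.0352 and an adjusted p of 1. No gene passed that test (0%), and 2.75% had an unadjusted p under 0.05. Kcnd3 had amplitudes of 0.22 (peak at 14.9 h, adjusted p = 0.370) and 0.23 (peak at 17.3 h, adjusted p = 0.491). For the genotype by time interaction 0 of 9 members passed or had an unadjusted p under 0.05, where 1 gene in all passed (0.00943%) and 1.93% of genes had an unadjusted p under 0.05.

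Among libraries of the same group some members moved together. Deviations from the group mean had r = 0.74 between Kcnh2 and Kcnj5 over 36 libraries and 0.53 over the 24, and r = 0.52 and 0.60 between Kcnq1 and Kcnj3. Kcnd3 and Kcnj5 ran opposite (r = -0.47 and -0.51). Others rested on the library set: Kcnd2 and Kcnj2 had r = 0.57 over 36 libraries and 0.019 over the 24, and Kcnd2 and Kcnh2 had 0.48 and -0.18. The set lay above both other libraries of its group in 11 of 12 groups for Kcnj2, 10 for Kcnd2, 9 for Kcnj5 and 4 for Kcnip2. These correlations share library, depth and scaling and are given as descriptions.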

How the data were processed

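RNA of the heart apex was depleted of ribosomal RNA and sequenced as 100 bp pairs from TruSeq stranded libraries, per the labels' protocols. The authors deposited FPKM per gene symbol and library in a table for each genotype. GSNAP, HTSeq and mouse build mm10 (GRCm38) were used, per the submitters' processing notes; the sources used here do not state versions, annotation or the use of strand in counting. Ribosomal depletion keeps unspliced RNA, and a few abundant genes can shift all other FPKM values.

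Here limma 3.58.1 (R 4.3.3) was fitted to log2(FPKM + 1) of the 10599 genes with a mean of at least 1 FPKM, with 12 group means, variance moderation with trend and robust settings, and Benjamini-Hochberg adjustment over all genes tested at a threshold of 0.05. Fold changes on this scale understate changes of low genes. Rhythm was a cosine and sine of 24 h period. No count test was run. FPKM summed to 534039 to 691583 a library, with 10339 to 10829 genes of at least 1 FPKM. In 24 libraries 90.6 to 100% of ratios among low genes lay at whole-number ratios (within 0.02 on the log2 scale, numbers up to 4), which puts their depths within 1.63-fold of each other; in the other 12 only 25 to 54.2% did, so that their depth is unknown. The test was also run on simulated data with independent noise in each library. That simulation held no structure by replicate number or library set, so it could not check the p-values for either.

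The members and lists were chosen with earlier results of these data known. All members are named, with every listed gene past the averaged threshold, the 5 genes most like Kcnip2 by correlation, and Klf15, Arntl, Dbp and Per2 as checks. A few genes of the lists are counted but not reported by name here. Positions come from GENCODE (GRCm38) and promoter sequences from RefSeq (GRCm38.p6). No label ties a library to an animal of its own, and the p-values reflect spread among libraries that may be technical. Replicate numbers 3 and 4 occur in both genotypes at every time. Same-numbered libraries of the genotypes deviated together (r of 0.157 to 0.508 in 12 of 12 pairs, all over 0.1, median 0.245). Crossed numbers had r of -0.275 to 0.153 (median 0.113). The extremes 0.508 and -0.275 come from 8 pm, where replicate 4 of both genotypes is in the set that stands apart. At the other times both numbers lie outside that set. There r was 0.196 to 0.313 for the same number and 0.0016 to 0.153 for crossed numbers. The part of the library set in these r was not tested, and no label says what the numbers mark. Blocked values stand beside the results they change. Alternatives changed the pseudocount (0.1 and 0.5), filter (none and 5 FPKM), scaling, replicate block, library set, variance moderation and the libraries included.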

Additional observations from a re-analysis of the deposited data

How the results depend on the processing

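Kcnip2 kept its averaged fall in all 54 alternatives (log2 fold change -0.64 to -0.56). The number of members called on average, 3, was 1 with a filter of 5 FPKM (4 members tested), 1 with the random replicate block and 1 in the 12 libraries that stand apart with additive terms, which was chosen after seeing the data, and it ranged from 1 to 3 when a library or a replicate number was left out. It was 1 without replicate 3 of cK15 and without replicate 3 of control at all times. The Kcnd2 rise lost its call in 18 of 53 alternatives and the Kcnd3 rise in 6 of 53, and neither changed direction. Without a filter, the adjusted p of Kcnd2 was 0.0519. With the replicate number as a fixed term, which does not pair libraries of the same time, 3 members stayed called. Kcnj11 (0.11) and Kcnj5 (0.0088) changed sign. Beside the lost calls given with each gene, the replicate blocks changed no other call of a member. At 12 pm the 1 member called, Kcnip2, became 0 with the library set left out, and left-out libraries gave 0 to 1 there and 0 to 1 at 8 am. The 1 rhythmic member in control, Kcnh2, became 0 without a filter (adjusted p = 0.0921), 0 without trend and robust moderation together (0.0536), 0 as 6 time means (0.470) and 0 to 1 with libraries left out. Among members without a call, quantile normalization gave 0.016 for Kcnj11 and 0.016 for Kcnj5, the library set left out 0.087 and 0.0025, and median-ratio rescaling 0.0038 for Kcnq1. Without a replicate number of cK15 at all times, values ran from -0.045 to 0.18 for Kcnh2, -0.096 to 0.010 for Kcnj11, -0.14 to 0.050 for Kcnj3, -0.11 to 0.048 for Kcnj5 and -0.11 to 0.093 for Kcnq1. Without one of control they ran from -0.0057 to 0.14, -0.11 to 0.071, -0.17 to 0.0046, -0.11 to 0.037 and -0.072 to 0.017 (0.0089 without replicate 2). Without a single library they ran from -0.071 to 0.011 (Kcnj11, whose cK15 libraries gave -0.063 to 0.0038), -0.095 to 0.0081 (Kcnj3) and -0.043 to 0.016 (Kcnq1, whose control libraries gave -0.034 to 0.0038), and none of these values passed the threshold. The cause of these changes was not tested, beyond the smaller number of genes or libraries that an alternative leaves. The median of all genes moved from -0.012 to 0.0045 and 0.019 with the other scalings. Precision is limited for genes near 2 FPKM, where the averaged SE is about 0.1 on the log2 scale. It is also limited for Kcna5, listed at 0 in 24 of 36 libraries. In 6 of the other 12, where depth could be read, Kcna5 lay at 1 or 2 times its smallest depth-scaled value.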
